A study of Mus musculus with 12 samples.

Results

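Day 6 was compared with day 3 in cells carrying a hairpin against Chaf1a while they were being reprogrammed, on the 3 arrays labelled day 6 Chaf1a knockdown and the 3 labelled day 3 Chaf1a knockdown. These 6 arrays were chosen by label alone and are 6 of the 12 in the series; the other 6 are the matching Renilla control arrays, 3 at each day. The cells were mouse embryonic fibroblasts from E13.5 embryos whose strain label joins C57Bl/6 and 129X1/SvJ. All 4 groups shared the genotype Col1a1::tetOP-OKSM ; R26-M2rtTA, in which doxycycline acts through the rtTA transactivator to switch on a cassette of Oct4 (Pou5f1), Klf4, Sox2 and c-Myc. All had been infected with a retrovirus, which carried a hairpin against Chaf1a (knockdown) or against Renilla luciferase (control), and all were cultured in DMEM with 15% serum and 1000 U/ml LIF. Doxycycline was given for 3 or 6 days, so there was no array without induced factors. The labels do not give the hairpin's sequence, and they do not say whether the replicates came from separate embryos, infections or cultures, so p-values measure only the spread between these samples.

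CAF-1, of which Chaf1a encodes the large subunit, is the chaperone that places histones H3 and H4 on newly replicated DNA. Fibroblasts driven by the induced factors first lose mesenchymal features and gain epithelial ones, and genes of the endogenous pluripotency network come on later and in few cells. In whole cultures such as these, more cells expressing a gene and more RNA per cell cannot be told apart.

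The arrays gave 1 intensity for each of 41345 probe sets, of which 23521 named 1 gene, for 22180 genes in all. All values below are log2 intensities, all differences are day 6 minus day 3, and a gene is said to have risen or fallen when limma's adjusted p was under 0.05. Levels were not compared between genes, since probe sets differ in brightness. Array medians ran from 39.5 to 43.3 on the linear scale, and arrays of the same group correlated at 0.991 to 0.995. Of 10 fibroblast markers, 8 lay above the array median in each group, including Col1a1, Col1a2, Vim and Thy1, while Lum did not reach the 30th percentile in at least 3 arrays. Markers of other cells were also read: 5 of 12 measured macrophage and leukocyte markers lay above the array median in the day 3 knockdown, among them C1qa, Cd68 and Itgam. Ptprc, which defines leukocytes, did not reach the 30th percentile in at least 3 arrays. Of 10 endothelial markers 5 lay above the median at both days, among them Cdh5, Flt1 and Kdr, and 2 rose. Emcn did not reach that percentile in at least 3 arrays either. In the day 3 knockdown, 7 of 10 skeletal muscle, 4 of 9 keratinocyte, 2 of 8 neural and 1 of 3 erythroid markers also lay above the median. As many probe sets lie above an array median as below it, so such counts alone do not show which cells were present.

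The targeted transcript was little lower in the knockdown arrays. Chaf1a read 7.35, 7.18 and 7.19 at day 3 and 7.04, 7.16 and 7.11 at day 6, where the controls read 7.44, 7.72 and 7.42 and then 7.06, 7.30 and 7.31. The knockdown arrays lay below all controls at day 3, by a log2 fold change of −0.29 (SE 0.09, limma adjusted p = 0.66), and overlapped them at day 6 (−0.12, SE 0.09, limma adjusted p = 0.999). Between the days Chaf1a changed by −0.14 in knockdown cells (95% interval −0.34 to 0.06, limma adjusted p = 0.396). Chaf1b, the middle subunit of CAF-1, changed by −0.20 (limma adjusted p = 0.184), and Rbbp4, the small subunit, by 0.27 on its brighter probe set (limma adjusted p = 0.052, past the threshold in 5 of 16 settings) and by 0.31 on the other, which passed. CAF-1 protein was not analysed here. The induced factors were level between the days: Pou5f1 differed by 0.10, Sox2 by 0.18, Klf4 by −0.10 and Myc by −0.00, and none passed. The sources used here do not say if their probe sets detect cassette RNA, endogenous RNA or both.

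Between day 3 and day 6 the knockdown cells changed 3169 of 22180 genes (14.3%). Of these, 1378 rose (6.21%) and 1791 fell (8.07%). Most changes were small: 84 genes rose at least 2-fold (0.379%) and 54 fell at least 2-fold (0.243%). Day 3 and day 6 arrays did not overlap for 3017 of the 3169, against 29.7% of all genes, and 3167 moved the same way in all 3 same-number pairs. Both largely follow from the call, which used the same arrays, and are no separate support for it. The median difference over all genes was 0.01. The number called depended on the arrays used. Against 1454 probe sets called higher with all arrays (6.18%), 593 to 1129 were called when arrays were left out, with 892, 776 and 593 without replicates 1, 2 and 3 of every group and 959 without day 3 knockdown replicate 3. Against 1860 called lower (7.91%) the range was 637 to 1433, with 1040, 876 and 637 without replicates 1, 2 and 3, 1160 and 1202 without day 3 knockdown replicates 1 and 3, and 993 and 1203 without day 6 knockdown replicates 2 and 3. No probe set called in the fit to all arrays changed sign in any of 16 alternative settings. Those settings used the same arrays, so this does not measure how the direction would repeat in new samples. Over genes, 431 of the 1378 rises and 457 of the 1791 falls passed in every setting they were tested in.

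The naming rule leaves out genes with predicted Gm or Rik names and RNA genes with Mir, Snord, Snora, Rn or n-R names. Rankings of single genes below hold among the others. Of 268 genes past the threshold that the naming rule selects, 148 passed in all 16 settings. Genes named below as having risen or fallen are among the 148 unless the text says otherwise. The counts of each list below are to be read against the shares over all genes, 6.21% for rises and 8.07% for falls. Counts given for control cells are to be read against 5.65% and 7.94%. Lists and members were chosen with earlier results of these data known. A share above that of all genes is therefore partly a matter of that choice, and is no independent support.

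The largest rise was that of Apela, which encodes a secreted peptide hormone that signals through the apelin receptor. Its 3 day 3 arrays read 5.39, 4.99 and 5.21 and its day 6 arrays 8.62, 8.68 and 8.73, an 11.2-fold rise (log2 fold change 3.48, SE 0.17, limma adjusted p = 7.24e-07). The days were far apart, and the day 6 arrays lay close together. Tac2, the precursor of the peptide neurokinin B, went from 5.38, 5.62 and 5.83 to 8.63, 9.20 and 8.89, a 9.80-fold rise. All 3 day 6 arrays lay above all 3 day 3 arrays here as well, which the choice of genes required. Atp12a, a proton and potassium pump, rose 4.88-fold, Socs2, a feedback inhibitor of cytokine signalling, 4.46-fold, and Bex4 4.04-fold. Sptssb, a small subunit of the enzyme that starts sphingolipid synthesis, rose by 1.97 on the log2 scale, and Rassf9, a Ras-association protein, by 1.90.

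A second set among the 15 largest rises, grouped after the values were seen, consisted of secreted proteins, most of them of the matrix. Aspn, which encodes asporin, a small leucine-rich proteoglycan that binds collagen, read 4.96, 4.69 and 4.51 at day 3 and 8.85, 7.21 and 6.72 at day 6, a 7.30-fold rise (log2 fold change 2.87, SE 0.29, limma adjusted p = 7.45e-05). Day 6 replicate 1 was well above the other day 6 arrays, and all 3 lay above day 3. Eln, the elastin gene, went from 5.26, 5.90 and 5.39 to 8.65, 7.60 and 7.00, again highest in replicate 1. Abi3bp, another matrix protein, rose 6.02-fold, Egfl6, a secreted EGF-repeat protein, by 2.01 on the log2 scale, Ecrg4, a secreted peptide precursor, by 1.99, and Ogn, the proteoglycan osteoglycin, by 1.93. For all of these the day 6 arrays lay above all day 3 arrays, a condition of their choice. The remaining 2 of the 15 were the epithelial genes Spint1 and Cdh1, described with their group.

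The deepest fall was that of U90926, which read 10.23, 10.16 and 10.22 at day 3 and 6.73, 7.36 and 7.08 at day 6, or 8.85-fold lower (log2 fold change −3.15, SE 0.12, limma adjusted p = 1.87e-07). Sprr2b, a small proline-rich protein of the cornified envelope, was 3.86-fold lower. Cnn1, which encodes calponin, an actin-binding protein of smooth muscle, went from 8.82, 8.82 and 9.05 to 7.11, 7.01 and 7.20. The arrays of each day lay close together. Ptgs2, the inducible cyclooxygenase that makes prostaglandin precursors, fell from 11.03, 11.13 and 11.14 to 9.46, 9.38 and 9.59 (3.08-fold lower, limma adjusted p = 9.32e-07). Lpl, lipoprotein lipase, was 3.20-fold lower and Nefl, the light neurofilament protein, 2.96-fold lower. The other 9 of the 15 fell by 1.31 to 1.47 on the log2 scale: Tnfsf18 (a TNF-family ligand), Fndc3c1, Tll1 (a tolloid-like metalloprotease that processes procollagens), Nabp1, Serpinb8, Osbp2, Ankrd1 (an ankyrin-repeat protein induced by mechanical stretch), Serpinb9b and Scel (sciellin, of the cornified envelope).

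**Figure D1:**
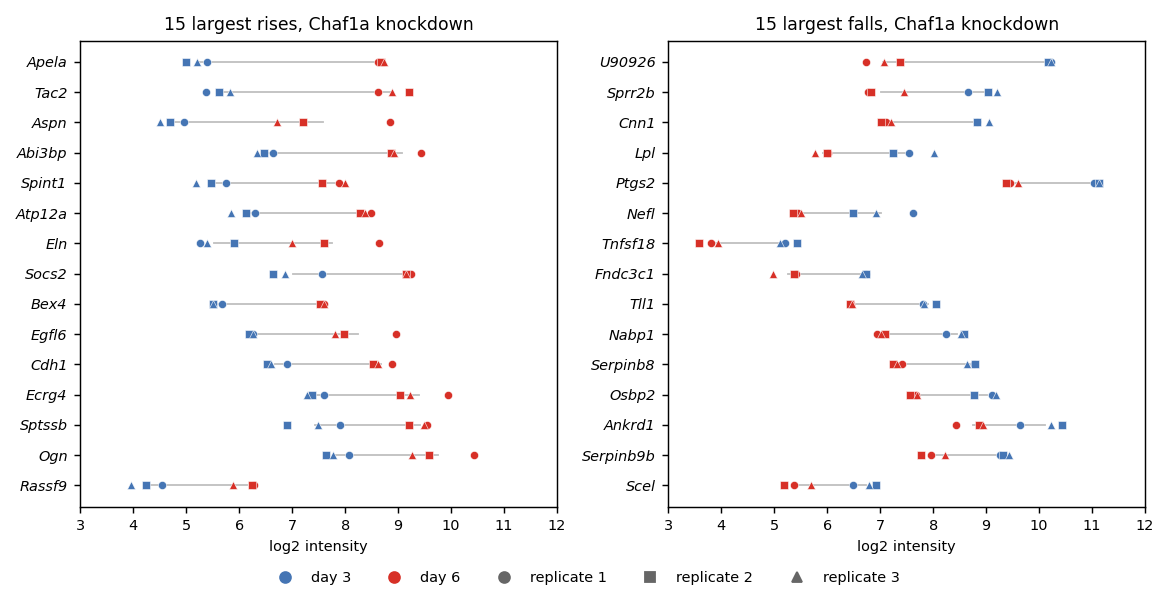
Log2 intensity in each of the 6 knockdown arrays for the 15 genes with the largest rise (left) and the 15 with the largest fall (right) between day 3 and day 6, with a symbol for each replicate and a grey line joining the means. The genes were chosen among those whose days did not overlap, so the days overlap for none of the 30. Predicted genes and RNA genes were left out by name. The day 6 arrays spread most for Aspn (6.72 to 8.85) and Eln (7.00 to 8.65).

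Genes of the pluripotency network rose in the knockdown cells. Of 46 measured members, 18 rose and 1 fell, with a median difference of 0.21 against 0.01 over all genes; 15 of the 18 passed in all 16 settings. Transcription factors made up most of them, 12 of 23. Nanog, a homeodomain factor at the centre of the network, read 5.50, 5.65 and 5.65 at day 3 and 6.24, 6.20 and 6.14 at day 6, a 1.51-fold rise (log2 fold change 0.60, SE 0.07, limma adjusted p = 0.000137). Sall4, a zinc finger factor of embryonic stem cells, went from 5.89, 5.62 and 5.83 to 6.66, 6.64 and 6.64, a 1.83-fold rise on its brighter probe set; the other changed by 0.04 and did not pass. In Nanog and the brighter Sall4 probe set each day 6 array lay above each day 3 array by more than the whole spread within a day. Tfap2c, a trophoblast and germ cell factor also made by stem cells, rose by 0.81, and Sall1, a relative of Sall4, by 0.72.

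Other members rose from low levels, unevenly across the day 6 arrays. Tdgf1, a co-receptor for Nodal, read 4.15, 4.33 and 4.27 at day 3, near or below the 30th percentile of each array (4.30 to 4.38), and 6.62, 5.51 and 5.47 at day 6, so its 3.08-fold rise was taken against a very low signal. Nr0b1, a nuclear receptor that interacts with Oct4, went from 4.43, 4.62 and 4.54 to 5.53, 6.81 and 5.32, and Utf1, a chromatin-associated stem cell factor, from 4.68, 4.72 and 4.57 to 6.29, 5.54 and 5.31. The highest day 6 array was replicate 1 for Tdgf1 and Utf1 and replicate 2 for Nr0b1. Without the array that was highest for it, Tdgf1 differed by 1.22, Utf1 by 0.78 and Nr0b1 by 0.94, and all still passed. Fbxo15, an early target of the induced factors, rose by 1.88, Jam2, an adhesion molecule, by 1.86, and L1td1, an RNA-binding protein, by 0.90. Zfp42, Esrrb, Dppa5a and Lin28a, markers of established embryonic stem cells, did not pass, at 0.20, 0.31, 0.25 and −0.03, and were picked for mention after their values were seen. Icam1, an adhesion molecule and the single fall of the list, fell by 0.35 on the log2 scale in the fit to all arrays but did not pass in 6 of the 16 settings.

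The promoters of Nanog and Epcam, a gene of the pluripotency list and one of the epithelial list, are shown as examples of the windows searched for motifs. Each covers 250 bases before and 50 after a start site in RefSeq (GRCm38.p6), plus strand: Nanog at chr6:122707315-122707614 and Epcam at chr17:87635729-87636028. Capitals mark the Sox motif ACAATG and the E-box CAGGTG, to which Snail and Zeb repressors bind, on either strand.
Nanog: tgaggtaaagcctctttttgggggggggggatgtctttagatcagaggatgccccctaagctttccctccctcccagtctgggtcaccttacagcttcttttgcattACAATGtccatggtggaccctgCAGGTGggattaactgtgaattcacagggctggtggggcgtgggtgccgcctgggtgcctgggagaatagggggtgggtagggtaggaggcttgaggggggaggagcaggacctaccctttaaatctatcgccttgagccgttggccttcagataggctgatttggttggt
Epcam: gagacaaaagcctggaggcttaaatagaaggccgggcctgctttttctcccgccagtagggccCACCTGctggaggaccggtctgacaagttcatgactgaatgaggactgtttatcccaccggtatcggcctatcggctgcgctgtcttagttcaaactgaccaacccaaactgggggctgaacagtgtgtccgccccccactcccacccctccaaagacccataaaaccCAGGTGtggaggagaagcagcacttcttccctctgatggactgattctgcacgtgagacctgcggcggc
The Nanog window holds the Sox letters 143 bases and the E-box 121 bases before the start, and the Epcam window holds the E-box 187 and 19 bases before it. A promoter of this length was found for 16990 of the 22180 genes. The E-box occurred in 22.3% of all these genes, 22.7% of those that rose and 19.2% of those that fell. The Sox letters occurred in 12.3%, 11% and 8.77%, the octamer ATTTGCAT in 1.87%, 1.59% and 1.40%, and the AP-1 letters TGACTCA in 5.54%, 4.37% and 6.11%. The GC box GGGCGG stood in 49.5% of all these genes, 67.9% of those that rose and 70.8% of those that fell. Both lay above the share over all these genes, which was not limited to expressed genes. These are shares of genes with the letters on either strand in any of their windows, with no test. Some genes have several windows.

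Epithelial genes rose over the same interval. Of 55 measured members 20 rose and 4 fell, with a median difference of 0.23; 9 of the 20 passed in all 16 settings, and 10 to 15 were called when arrays were left out, with 13, 12 and 10 without replicates 1, 2 and 3. Cdh1, which encodes E-cadherin, the adhesion molecule of epithelial junctions, read 6.91, 6.52 and 6.61 at day 3 and 8.89, 8.52 and 8.61 at day 6, a 3.98-fold rise (log2 fold change 1.99, SE 0.13, limma adjusted p = 4.17e-06). The days did not overlap, as the choice of the largest rises required, and replicate 1 was highest at each. A second, dimmer probe set also rose, by 0.37. Spint1, an inhibitor of membrane serine proteases, went from 5.76, 5.47 and 5.19 to 7.88, 7.57 and 7.99, a 5.06-fold rise, the largest of the list. Its relative Spint2 rose 2.09-fold, and St14, matriptase, the protease that both inhibit, rose 1.59-fold but lost its call without replicate 2 (limma adjusted p = 0.053) or replicate 3 (limma adjusted p = 0.057). Epcam, an epithelial adhesion molecule, went from 4.66, 4.76 and 4.57 to 5.36, 6.46 and 5.89; the days did not overlap, and the day 6 arrays spread more widely than those of day 3.

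Within the epithelial list the parts differed. Of 15 tight junction genes 6 rose and 0 fell in limma, among them Cldn11 (0.68), F11r (0.65) and Tjp1 (0.53), which encodes the scaffold ZO-1, and in the control cells 4 of the 15 rose and 0 fell. Esrp1, an epithelial splicing regulator, rose by 0.52. Keratins went both ways: Krt8 rose by 0.44 and its partner Krt18 by 0.51, the latter not passing without replicate 3 (limma adjusted p = 0.064) or on a second probe set (0.21), while Krt19 fell by 0.94 on the log2 scale, from 9.45, 9.45 and 9.32 to 8.36, 8.56 and 8.49. Cd24a, a surface glycoprotein, fell by 0.68 on the log2 scale. Summed over 10 epithelial markers, the log2 level lay between 8.92 and 9.18 on the day 3 arrays and between 10.08 and 10.32 on those of day 6.

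Car2, Nanog, Sall4, Cdh1 and Tdgf1 were among the genes whose change over time differed most from that in control cells, but no probe set passed the test of that difference. They were chosen for a small p in that test. The intervals given for such genes are not adjusted for the choice, so their distance from 0 is no separate support. In limma 0 of 23521 passed (0%) and 1267 had an unadjusted p under 0.05 (5.39%), 663 with a positive difference (knockdown minus control) and 604 with a negative one. The smallest adjusted p was 0.0977, for Car2, a carbonic anhydrase. It read 7.61, 6.85 and 7.12 at day 3 and 8.18, 7.41 and 7.51 at day 6 in the knockdown, a rise of 0.50, and 6.89, 6.98 and 6.77 and then 6.19, 5.60 and 5.67 in the control, a fall of 1.06 on the log2 scale. The difference was 1.56 (95% interval 1.15 to 1.98), and all 3 pairs rose in the knockdown and fell in the control, though day 3 replicate 1 overlapped the day 6 arrays of the knockdown. Its rise in the knockdown alone lost its call in 9 of 16 settings, without the block by replicate among them. Array weights, and a trended robust prior, each gave 1 probe set past the threshold for the difference between hairpins, that of Car2, and the fit without day 6 knockdown replicate 1 gave 2, those of Tdgf1 and Vmn1r57.

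Nanog changed by −0.04 in control cells, which left a difference of 0.64 (95% interval 0.43 to 0.84, limma adjusted p = 0.157), and Sall4 by 0.06, a difference of 0.81 (0.55 to 1.07, limma adjusted p = 0.157). Tdgf1 read 4.16, 4.09 and 4.09 and then 3.99, 4.15 and 4.16 in the controls, a change of −0.01 below the 30th percentile. Cdh1 rose in controls as well, by 0.96, and the knockdown's rise was larger by 1.03 (0.63 to 1.43, limma adjusted p = 0.604). Tfap2c (difference 0.69), Dsp, which encodes desmoplakin (0.87), and Vmn1r57, a vomeronasal receptor that lay below the 30th percentile of every array (0.85), completed the 8 with the smallest p among positive differences. Dsp itself did not pass in the knockdown (0.33, limma adjusted p = 0.127), and Vmn1r57 lost its call in 3 settings. The 8 negative ones did not pass either. They were Prrt4 (−0.43), Gapdhs (−0.62), Havcr2 (−0.42), Efcab15 (−0.51), Car11 (−0.59), Tex48 (−0.41), Slc18b1 (−0.38) and Tbrg3 (−0.53).

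**Figure D2:**
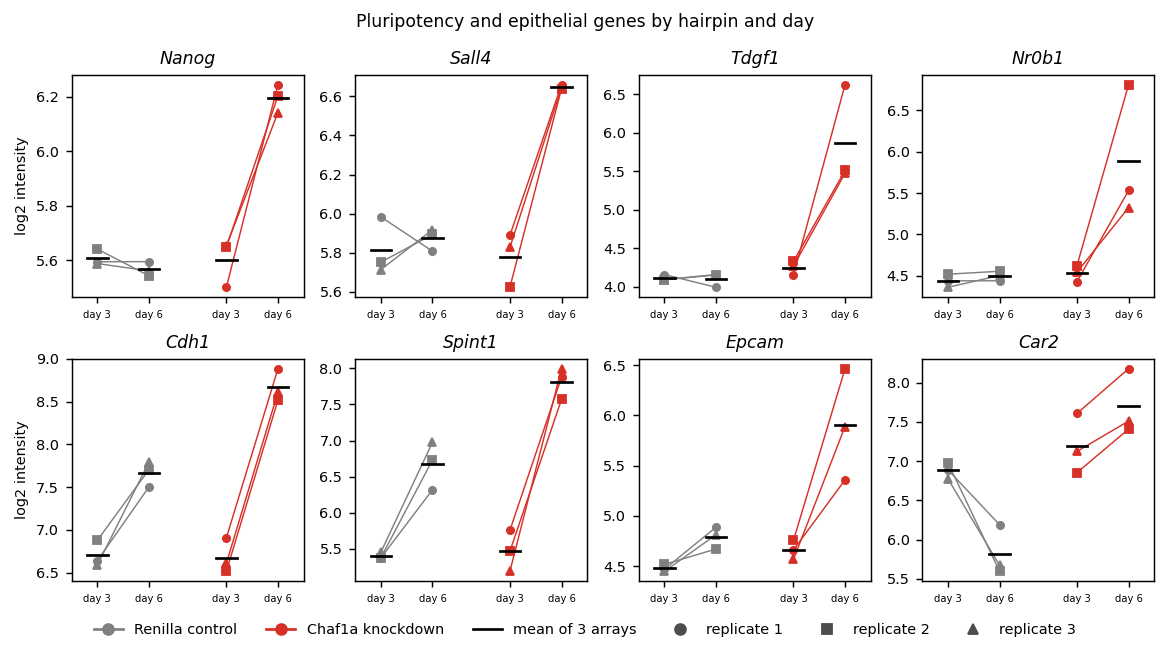
Log2 intensity of 8 genes in all 12 arrays, with lines joining day 3 and day 6 arrays of the same replicate number (grey, Renilla control; red, Chaf1a knockdown) and black bars at the means of 3 arrays. Nanog, Sall4, Tdgf1 and Nr0b1 rise in the red arrays and stay level in the grey ones, Cdh1 and Spint1 rise in both, and Car2 rises in red and falls in grey; the vertical axes differ between genes and do not start at 0.

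Side by side, the 2 time courses had much in common. The control cells changed 3015 genes, 1254 higher (5.65%) and 1761 lower (7.94%), or 1307 probe sets higher (5.56%) and 1847 lower (7.85%). At least 2-fold, 83 genes rose (0.374%) and 47 fell (0.212%). Of the 1378 genes that rose in the knockdown, 841 also rose in the control, and 535 were not past the threshold there; 413 rose in the control alone. Of the 1791 that fell, 1169 fell in both and 622 were not past the threshold in the control, while 590 fell in the control alone. Only Car2 and Vmn1r57 rose in the knockdown and fell in the control, and 0 genes did the reverse in limma. Genes with the largest changes in the knockdown changed in the control too, by more or by less: Apela rose by 2.93 there, Tac2 by 3.03, Aspn by 3.48 and Bex4 by 1.51, and U90926 fell by 3.18 on the log2 scale. A gene called in a single time course is not shown to differ between hairpins, and the median 95% interval of the difference reached 0.25 either way.

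**Figure D3:**
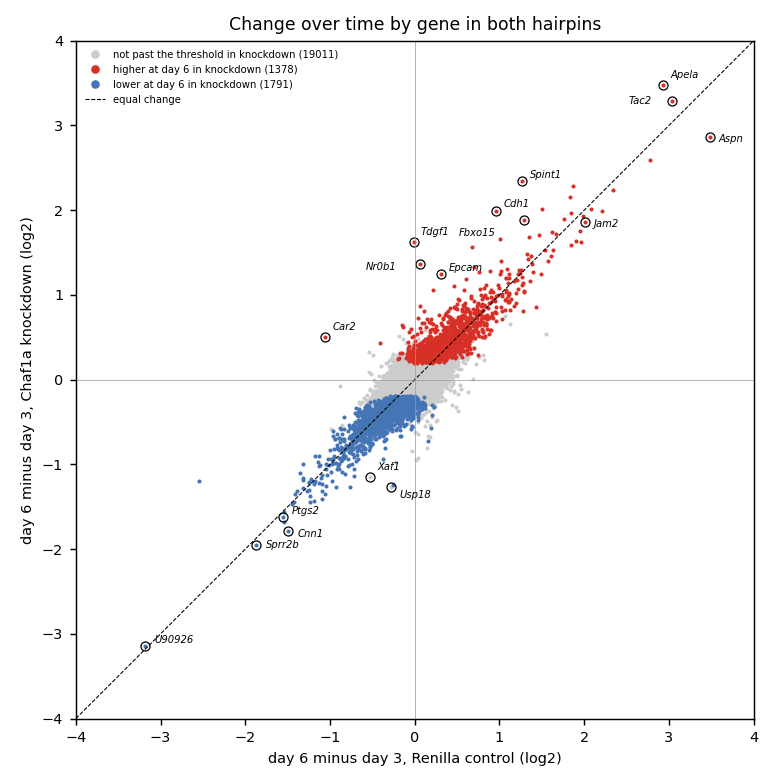
Difference between day 6 and day 3 (log2) in Renilla control cells (horizontal) and Chaf1a knockdown cells (vertical) for each of 22180 genes, coloured by the call in the knockdown, with the line of equal change dashed. Most coloured genes lie along the line, and Car2, Tdgf1, Nr0b1, Epcam, Cdh1 and Spint1 lie above it.

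Among pluripotency genes the control cells called 6 higher and 0 lower in limma (median 0.06), and among epithelial genes 7 higher and 5 lower (median 0.08). In each of these lists 13 members had an unadjusted limma p under 0.05 for the difference between hairpins, of 46 and 55 measured. Over all probe sets that share was 5.39%. None passed after adjustment over all probe sets, and the lists were chosen with earlier results of these data known. Spint1 rose by 1.27 in the control, Fbxo15 by 1.28 and Jam2 by 2.01. Epcam differed by 0.31, Nr0b1 by 0.06 and Utf1 by 0.22 there, and none of these 3 passed.

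Genes of contraction fell. Of 24 smooth muscle and contractile genes 13 fell and 2 rose, with a median of −0.26, and 6 of the 13 passed in all 16 settings; 7 to 13 were called when arrays were left out, with 7 without replicate 2 and 7 without replicate 3. Besides Cnn1, the falls included Tpm2, a tropomyosin (from 8.67, 8.79 and 8.57 to 7.50, 7.53 and 7.67), Csrp2, a LIM protein, by 0.93 on the log2 scale, and Pdlim7, by 0.72. In control cells 10 of the 24 fell and 1 rose.

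Fibroblast and matrix genes went both ways. Of 14 fibroblast surface proteins 5 rose and 3 fell, and of 8 cytoskeletal ones 5 fell and 0 rose in limma. Cd34, a sialomucin of mesenchymal progenitors, rose from 10.74, 10.28 and 10.05 to 11.42, 11.29 and 11.48, and Pdgfrb, a receptor for platelet-derived growth factor, by 0.91, while Cd44, the hyaluronan receptor, fell by 0.55 on the log2 scale and Anxa1, annexin A1, by 0.66. Of 52 matrix proteoglycans and glycoproteins 12 rose and 10 fell, with a median of −0.00; without the block by replicate number these counts were 7 and 8, and leaving out arrays gave 6 to 11 and 2 to 10, the lowest of both without replicate 3. The small leucine-rich proteoglycans had 5 rises among 12, including Fmod (1.06), and 0 falls in limma. Vcan, a large hyaluronan-binding proteoglycan, fell from 8.69, 8.82 and 8.96 to 7.30, 7.64 and 7.60, and Fbn2, a microfibril protein, rose by 0.98. Of 40 collagens 5 rose and 3 fell, where 6.21% of all genes rose and 8.07% fell. The mesenchymal transcription factors had 7 rises and 3 falls among 27 (4 and 2 without the block), with Tcf4 rising by 0.58; Snai1, Snai2, Twist1 and Zeb1, named after their values were seen, did not pass (−0.23, −0.18, 0.28 and 0.05).

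Integrins and laminins, which tie cells to the matrix, went both ways within each family. Lama5, a laminin chain of epithelial basement membranes, rose from 6.79, 6.67 and 6.77 to 8.08, 7.84 and 7.66, and Lamb2 by 0.71, while Lama2 fell by 0.58 on the log2 scale. Of 10 laminins 5 rose and 1 fell, and of 17 integrins 4 rose and 2 fell. The collagen-binding integrins Itga1 and Itga11 rose by 0.97 and 0.95, and Itga4 fell by 1.19 on the log2 scale, from 9.41, 8.79 and 9.40 to 7.82, 7.97 and 8.24. Among 28 matrix proteases and inhibitors 6 fell and 3 rose. The falls included Plaur, the urokinase receptor, by 0.90, Adam19 by 0.67 (its second probe set, at −0.08, did not pass) and Timp1 by 0.52 on the log2 scale.

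**Figure D4:**
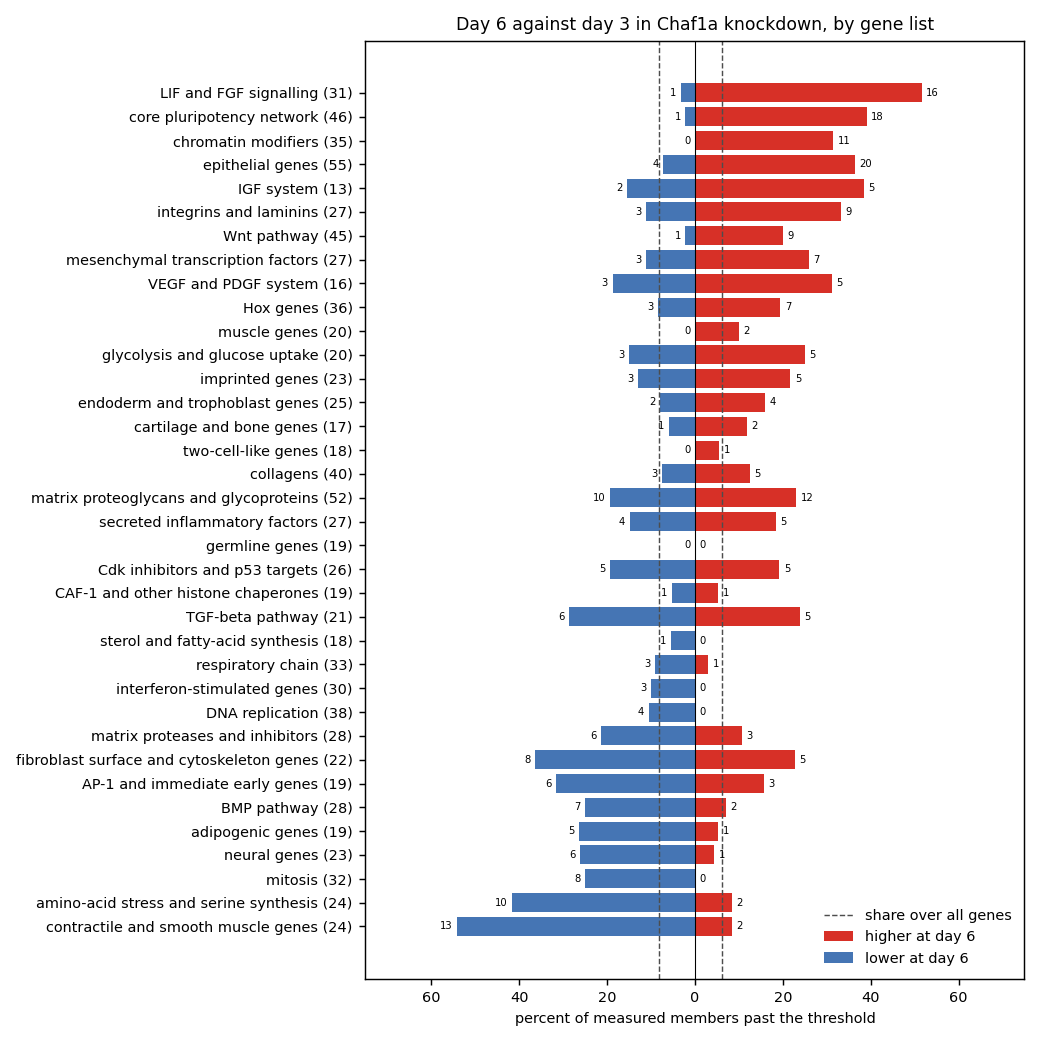
Share of measured members (in brackets) of each gene list that rose (red, right) or fell (blue, left) between day 3 and day 6 in Chaf1a knockdown cells, with the counts beside the bars and dashed lines at the shares over all genes, 6.21% and 8.07%. LIF and FGF signalling (16 of 31), the pluripotency network (18 of 46) and epithelial genes (20 of 55) reach far to the right, and contractile genes (13 of 24) and the amino-acid genes (10 of 24) far to the left. The lists were chosen with earlier results of these data known.

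In the list of LIF and FGF signalling, which holds ligands, receptors, effectors and inhibitors, 16 of 31 members rose and 1 fell, with a median of 0.27, and 11 of the 16 passed in every setting; the control cells had 15 rises and 0 falls in limma, with a median of 0.23. Dusp6, a phosphatase that limits ERK, went from 10.37, 9.98 and 10.25 to 11.13, 10.94 and 11.03 on its brighter probe set, while the other changed by 0.14 and did not pass. Dusp4, a related phosphatase, rose by 0.80. Spry1, an inhibitor of the pathway, rose by 0.73, Etv5, a transcription factor downstream of FGF, by 0.72 (0.39 on a second probe set, which did not pass), and the ligand Fgf18 by 1.02. Along the LIF branch, Socs2 read 7.56, 6.63 and 6.86 at day 3 and 9.25, 9.14 and 9.14 at day 6, Socs3 rose by 0.50, and the shared receptor chain Il6st by 0.51.

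In the Wnt pathway 9 of 45 members rose and 1 fell, including the receptor Fzd2 (0.58), the co-receptor Lrp6 (0.39, with a second probe set at 0.17 that did not pass), the secreted inhibitor Sfrp1 (0.66) and the agonist Rspo2 (0.57); 5 of the 9 passed in all settings, and 5 were called without replicate 1. The TGF-beta pathway had 5 rises and 6 falls among 21. Its receptor Tgfbr2 and ligand Tgfb2 rose by 0.55 and 0.52, and Inhba, an activin subunit, fell from 8.28, 8.37 and 8.21 to 7.50, 7.35 and 7.52. In the BMP pathway 7 of 28 fell and 2 rose. The ligands Bmp4 and Bmp6 rose by 0.56 and 0.61, and the transducer Smad9 fell by 0.97 on the log2 scale and the inhibitor Nog by 0.55. The VEGF receptor Kdr rose by 1.25, and Kitl, the ligand of Kit, fell by 0.90 on the log2 scale. Among 19 AP-1 and immediate early genes 6 fell and 3 rose: Egr1 rose by 0.85 and Fos by 0.53, and Jun fell by 0.54 and Nr4a3 by 0.76 on the log2 scale. In the IGF system 5 of 13 rose and 2 fell, with Igf1r up by 0.46 and the binding protein Igfbp4 by 0.65.

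Of 38 DNA replication genes 4 fell and 0 rose in limma (median −0.16), a share near the 8.07% of all genes that fell, and of 32 mitotic genes 8 fell and 0 rose (median −0.22). Rrm2, a ribonucleotide reductase subunit, went from 10.30, 10.12 and 10.14 to 9.51, 9.66 and 9.68 (a second probe set, at −0.20, did not pass), and Birc5, survivin, from 7.99, 7.74 and 7.67 to 7.14, 7.32 and 7.24. Prc1 fell by 0.54 and Anln by 0.42 on the log2 scale, both of cytokinesis. Across the arrays the mean level of both lists was highest in day 3 replicate 1 and lowest in day 6 replicate 1. Leaving out arrays gave 1 to 5 falls for replication, the lowest without replicate 1, without replicate 3 and without day 3 knockdown replicate 1, and 3 to 9 for mitosis, the lowest without replicate 3. In control cells 17 of the 38 and 20 of the 32 members fell, where 7.94% of all genes fell. For the difference between hairpins 2 and 1 members had an unadjusted limma p under 0.05, against 5.39% of all probe sets. None passed the threshold, so the unequal counts do not show a difference between hairpins. Of 7 Cdk inhibitors 4 rose and 1 fell: Cdkn1c by 1.04, Cdkn2a, a barrier to reprogramming in fibroblasts, by 0.63 (from 10.08, 9.88 and 10.17 to 10.76, 10.63 and 10.64), and Cdkn1b by 0.48. Cdkn2b also rose in the fit to all arrays (0.31) but not in 2 of 16 settings. Of 19 p53 targets 4 fell and 1 rose, and among these Sesn1 rose by 0.76 and Mdm2 fell by 0.38 on the log2 scale.

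Chromatin regulators rose where they changed at all. Of 35 members 11 rose and 0 fell in limma, with a median of 0.14; 5 to 9 were called when arrays were left out, with 5 without replicate 1, 2 or 3 of every group. Tet1, which oxidises 5-methylcytosine, read 5.82, 5.71 and 5.80 at day 3 and 7.01, 6.79 and 6.72 at day 6, a 2.08-fold rise. Jarid2, a Polycomb partner, rose from 7.76, 7.52 and 7.78 to 8.65, 8.51 and 8.42, and Dnmt3b, a de novo DNA methyltransferase, by 0.60. In the control cells Tet1 rose by 0.59 and Jarid2 by 0.42. Of 19 histone chaperones, Atrx rose by 0.44 and Asf1b, which hands histones to CAF-1, fell by 0.59 on the log2 scale.

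Imprinted growth regulators included several strong rises, 5 of 23, against 3 falls. Peg3 went from 8.45, 8.55 and 8.37 to 10.26, 9.94 and 9.63, Mest rose by 0.99, and Nnat by 1.16 on its brighter probe set and 0.40 on the other, which did not pass. The median of that list was −0.02, near that of all genes. Of 36 Hox genes 7 rose and 3 fell, by no more than 0.55 either way. Genes of the early cleavage-stage embryo had 1 rise among 18, Zscan4a by 0.32, which lost its call in 10 of 16 settings, and only 7 of the 18 reached the 30th percentile in at least 3 arrays. None of 19 germline genes passed in limma. Endoderm and trophoblast genes had 4 rises and 2 falls among 25, with Tfap2a up by 0.76 and Gata2 down by 0.82 on the log2 scale. Over all genes, 6.21% rose and 8.07% fell.

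Metabolic genes changed in both directions. Of 24 genes of amino-acid supply and serine synthesis 10 fell and 2 rose; 3 of the 10 passed in all settings and 3 to 8 were called when arrays were left out, the lowest without replicate 1. Slc7a5, a leucine transporter, fell from 10.57, 10.63 and 10.61 to 9.89, 9.94 and 9.78, and Mthfd2, of the mitochondrial folate cycle, by 0.70 on the log2 scale. The glucose transporter Slc2a3 rose by 1.19 (from 8.03, 8.30 and 8.34 to 9.31, 9.44 and 9.48). Slc2a1, another, rose by 0.50 on its brighter probe set and changed by 0.13 on the other, which did not pass. Among glycolytic enzymes Aldoc rose by 1.37 and Pfkp fell by 0.90 on the log2 scale. The rise of Slc2a3 in control cells was 0.60, and the difference did not pass (0.59, limma adjusted p = 0.871). Of 19 fat cell genes 5 fell and 1 rose, with a median of 0.00. Besides Lpl the falls included Fabp5, a fatty-acid binding protein, by 1.10, Plin2, which coats lipid droplets, by 0.82, and Pparg by 0.44 on the log2 scale. Respiratory chain genes had 1 rise and 3 falls among 33, where 6.21% of all genes rose and 8.07% fell.

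Interferon-stimulated genes had the lowest median of any list, −0.31, and a single array carried it. Usp18, Xaf1 and Isg15 are given because their values showed it. Usp18 read 5.79, 8.61 and 6.16 at day 3 and 5.46, 5.70 and 5.61 at day 6, Xaf1 7.28, 9.43 and 7.53 and then 7.00, 6.99 and 6.78, and Isg15 5.47, 7.32 and 5.58 and then 5.22, 5.38 and 4.99. Day 3 replicate 2 stood far above its fellows in all 3 genes, none of which passed (limma adjusted p = 0.0704, 0.0649 and 0.0849). Averaged over the 30 members and centred on each gene's mean, that array stood at 0.95, and the other 11 of the series, control arrays included, between −0.18 and −0.01. Ifit2, Eif2ak2 and Cxcl10 fell in the fit to all arrays, by 0.48, 0.43 and 0.33 on the log2 scale, in none of the 3 cases in all 16 settings. Without day 3 knockdown replicate 2 the median was −0.01, with 3 members higher and 2 lower.

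**Figure D5:**
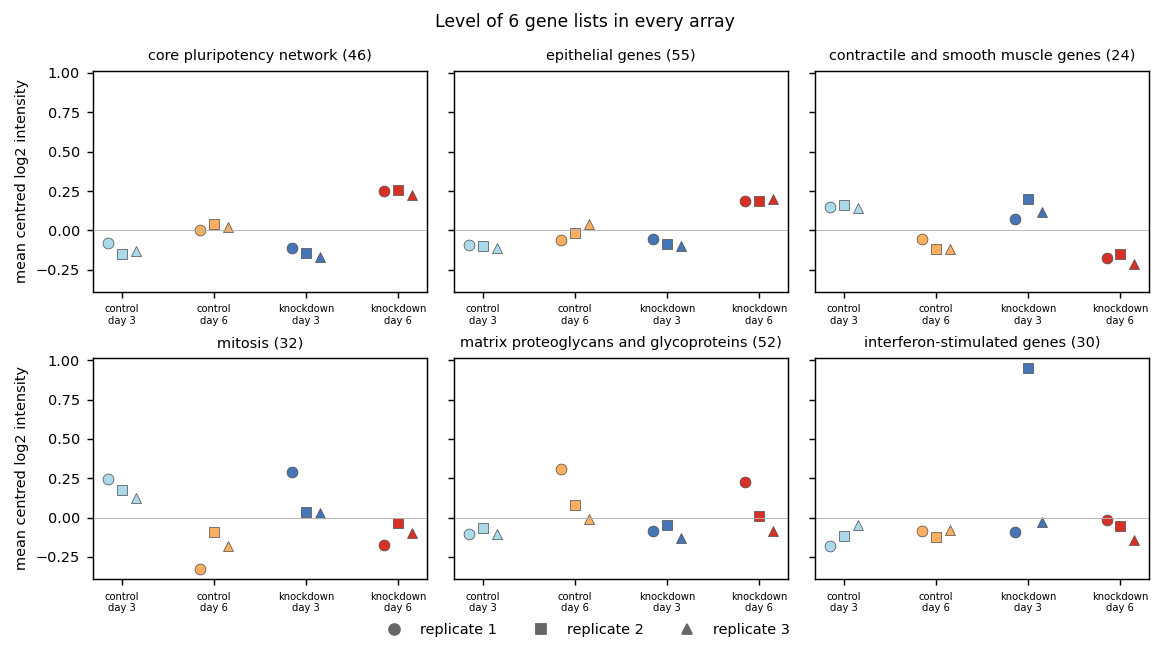
Mean log2 intensity over the members of 6 gene lists, each gene centred on its mean over the 12 arrays, shown for every array by group and replicate. Pluripotency and epithelial genes are highest in the 3 day 6 knockdown arrays and contractile genes lowest there, replicate 1 is highest of the knockdown arrays at day 3 for mitotic genes and at day 6 for matrix genes, and a single day 3 knockdown array stands at 0.95 for interferon-stimulated genes.

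Markers of other cell types moved with time as well. Of 12 measured macrophage and leukocyte markers 3 fell and 0 rose in limma, and their summed log2 level lay between 9.96 and 10.06 on the day 3 arrays and between 9.23 and 9.36 on those of day 6; 5 lay above the array median at day 3 and 3 at day 6. Their part in the falls listed above was not tested. Of 27 secreted inflammatory factors 5 rose and 4 fell, with the chemokine Ccl7 down by 0.65 on the log2 scale beside Ptgs2. Of 23 neural genes 6 fell and 1 rose; Stmn2 fell by 0.62 and Gap43 by 0.65 on the log2 scale, and both belong to growing axons. Muscle genes had 2 small rises among 20, neither called in all settings. Cartilage and bone genes had 2 rises, of which Sox6 (0.58) passed in every setting, and 1 fall among 17. Over all genes, 6.21% rose and 8.07% fell.

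The day 6 arrays were not alike. Among genes that rose, day 6 replicate 1 held the highest of the 3 values in 58.3%, replicate 2 in 24.0% and replicate 3 in 17.7%, where over all genes the shares were 38.3%, 32.0% and 29.7%. Among genes that rose at least 2-fold, replicate 1 was highest in 66.7%. The falls were more even, with replicate 2 lowest in 41.6%. The median within-pair difference of the genes that rose was 0.43, 0.40 and 0.39 in replicates 1, 2 and 3.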

How the data were processed

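Expression was read on 12 Affymetrix arrays, 3 in each of 4 groups. The values were used as deposited: intensities per probe set, which the authors normalised by RMA; the submitters' processing notes name Expression Console 1.3.0.187 from Affymetrix; scanner files were not used here. They were put on a log2 scale, and the 23521 probe sets that name 1 gene were kept. A mean for each group, with the replicate number as a block, was fitted over all 12 arrays in limma 3.58.1 (R 4.3.3), two-sided, with Benjamini-Hochberg adjustment over all 23521 and a threshold of 0.05. The brightest probe set stood for each gene. The code was tested on simulated data.

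In the knockdown arrays, same-number deviations correlated at 0.17 to 0.31 in the 3 pairs, and others at −0.24 to −0.02. Over all groups the ranges were −0.01 to 0.32 and −0.24 to 0.03, and they overlapped. Deviations were taken from the mean of each group of 3, so same-number and other correlations are not independent. The named genes were the targeted and induced genes, the 15 largest non-overlapping rises and falls, the 8 smallest p of each sign for the difference between hairpins, and up to 5 genes past the threshold for each list or role. Genes with predicted Gm or Rik names and RNA genes of the types given above were left out before ranking. Members and lists were chosen with earlier results of these data known. The alternatives were no block, the 6 knockdown arrays alone, a low-value filter (30th percentile in 3 arrays), quantile normalization, an offset of 16, array weights, a trended robust prior and leaving out arrays. Intensities carry no read depth, so the number of arrays limits precision; the median 95% interval reached 0.18 either way.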

Additional observations from a re-analysis of the deposited data

How the results depend on the processing

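With arrays left out, probe sets higher at day 6 in the knockdown numbered 593 to 1129 and lower ones 637 to 1433. In the control the ranges were 580 to 1338 and 636 to 1857; the numbers without replicates 1, 2 and 3 were 822, 580 and 591 higher and 1130, 675 and 636 lower. Each such fit has fewer arrays. The test of the difference between hairpins gave 0 to 2 probe sets with arrays left out, 2 without day 6 knockdown replicate 1, and 1 each with array weights and with a trended robust prior. Asking for a 2-fold change as well left 86 higher and 61 lower. Without the replicate block the knockdown counts were 1292 higher and 1754 lower; the pairing changed neither by over 1.5 times. The medians of 2 lists, both near 0, changed sign. That of glycolysis was 0.027 after renewed quantile normalization and, with arrays left out, between −0.050 and 0.0035, with 0.0035 without replicate 3 and 0.0031 without day 6 knockdown replicate 2. That of muscle genes was −0.0048 after quantile normalization and, with arrays left out, between −0.0092 (without replicate 3) and 0.067. The cause was not tested. Dim probe sets limit what can be seen: Tdgf1 at day 3 and Vmn1r57 on all arrays lay near background.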
